A study of Rattus norvegicus with 48 samples.

Results

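The F3 lists name the cytosines at which sperm DNA methylation differed between the control line and the organochlorine line in the generation that the lists' description calls F3. All rows of the F3 hypermethylated list and of the F3 hypomethylated list were taken, with no further selection. They held 1997 cytosines, out of 4937 rows in the 6 lists of the series and 3998 distinct cytosines. Cytosines at most 1000 bp apart were counted as 1 locus, which gave 1392 loci.

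Methylation was measured in epididymal sperm of Sprague-Dawley rats by bisulfite sequencing of a reduced, CpG-rich part of the genome, in which unmethylated cytosines are converted and methylated ones are not. Founder females (F0), 5 weeks old, received corn oil (the control line) or a mixture of Arctic persistent organic pollutants at 500 µg per kg body weight (the organochlorine line) by gavage for 5 weeks and then on through mating to birth. Descendant males of both lines were killed at 90 days of age, and 6 of each line were profiled in a generation. The labels cover 48 samples and number the generations 1 to 4, whereas the lists are described as F1, F2 and F3, so no list is tied to single samples here. Exposure and line of descent cannot be told apart in this comparison, because each treatment forms its own line.

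Methylation in mammals sits mainly on cytosines followed by guanine (CpG), a palindrome that normally carries the mark on both strands. Sperm DNA is methylated at most CpGs and unmethylated at most CpG islands, and the pattern is erased and rebuilt in the embryonic germ line and again in part after fertilisation. Gavage of a pregnant F0 female reaches her, the F1 fetus and the germ cells inside that fetus from which F2 will come. The F3 males are the first generation with no direct contact with the dose, which is why a change there is called transgenerational.

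Each value is the authors' difference between the 2 groups at 1 cytosine, in percentage points of methylation. The description of the lists does not say which group was subtracted, so the words hypermethylated and hypomethylated follow the names of the lists. Values of single samples and coverage were not analysed here, so no error or replicate spread can be attached to a difference, the depth is unknown and no test between groups could be made. The number of cytosines tested in F3 is not given in the sources used here, and the share of measured cytosines that was listed is therefore unknown. The coordinates printed here belong to the rat build Rnor_5.0. No annotation or genome of that build was used here, so loci are given by position, without gene context or sequence, and the labelled cell type was not checked against markers.

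In F3 the listed changes ran in both directions, with somewhat more loci hypomethylated than hypermethylated. Of the cytosines, 936 were hypermethylated and 1061 hypomethylated. Of the loci, 650 were hypermethylated by their mean difference and 742 hypomethylated, a hypermethylated share of 46.7% (95% exact Clopper-Pearson interval 44.0% to 49.4%, which covers the counting of loci only). Hypermethylated sites had a median difference of 27.1 points and hypomethylated sites a median absolute difference of 27.2 points in the authors' deposited table. All 20 numbered chromosomes carried listed sites, and no list of the series named a site on X or Y. Of the F3 sites, 1048 lay on the plus strand and 949 on the minus strand. The plus strand held 54.6% of hypermethylated and 50.6% of hypomethylated sites.

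Most F3 differences were of moderate size. The authors kept sites with a difference of at least 20 points at a false discovery rate below 1%, and the sites closest to that limit stood at 20.01 and -20.003 points in the authors' deposited table. Within 1 point of the limit lay 177 sites, or 8.86%, and 771 sites were below 25 points. At the other end 251 sites, 12.6% of the list, reached 40 points or more, and 20 sites reached 60 points, 9 of them hypermethylated and 11 hypomethylated. The hypermethylated share hardly moved with size: it was 47.0% of sites between 20 and 25 points, 45.7% between 25 and 30, 48.8% between 30 and 40, 44.8% between 40 and 50 and 45.6% above 50 points. In F1 the same share went from 66.2% in the smallest class to 45.8% in the largest, and in F2 from 60.4% to 41.4%. These differences between lists were not tested.

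A p-value of exactly 0 was deposited for 735 F3 sites, or 36.8%, against 45.0% of F1 sites and 48.8% of F2 sites. In each of the 3 lists the smallest p-value above 0 from the authors' test was 1.11e-16. A listed 0 therefore marks a value below that floor. The F3 share of sites listed at 0 was the lowest of the 3 lists in every size class. Between 20 and 25 points it was 13.4% in F3, 23.2% in F1 and 24.9% in F2, and between 40 and 50 points it was 80.2%, 95.3% and 96.6%. A difference of a given size thus carried a less extreme p-value more often in the F3 lists. Coverage, which bears on such p-values, is unknown, and its part was not tested.

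**Figure D1:**
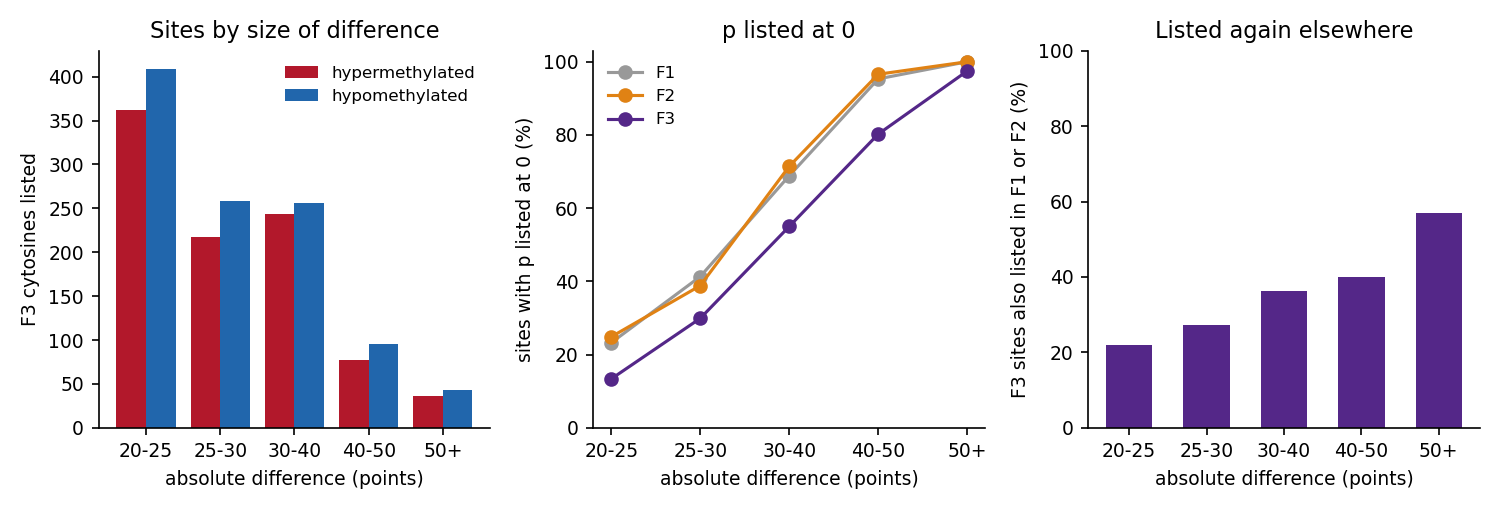
Left, number of F3 cytosines by absolute methylation difference in percentage points, hypermethylated (red) and hypomethylated (blue). Middle, percent of listed sites with a deposited p-value of 0 in F1, F2 and F3 by the same size classes, with F3 lowest in each. Right, percent of F3 sites also listed in F1 or F2, from 22.0% in the smallest class to 57.0% in the largest.

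The size of an F3 difference went together with its being listed in another generation. Of sites between 20 and 25 points, 22.0% were also listed in F1 or F2 at the same position and strand. This share was 27.2% between 25 and 30 points, 36.4% between 30 and 40, 40.1% between 40 and 50, and 57.0% above 50 points, where 45 of 79 sites were listed again. Sites listed in F3 alone numbered 1402, or 70.2% of the F3 lists, and had a median absolute difference of 26.2 points in the authors' deposited table. The median was 31.1 points for the 250 sites shared with F1 only and 29.4 points for the 214 shared with F2 only. For the 131 sites shared with both it was 29.6 points, so the median did not rise further with listing in all 3 generations. Of the sites in F3 alone, 153 lay within 100 bp of a cytosine listed in F1 or F2, which leaves 1249 with no such neighbour.

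The 2 strands of a CpG are covered by different sequencing reads, so they give an internal measure of how well a difference repeats. In F3, 241 CpGs were listed on both strands, which accounts for 482 cytosines or 24.1% of the list, against 16.9% in F1 and 18.5% in F2. The strands had the same direction in 237 of the 241 CpGs, or 98.3% (95.8% to 99.5%), 114 hypermethylated and 123 hypomethylated. The median gap between strands was 5.09 points, with quartiles of 2.03 and 8.24 points, and 9 CpGs had a gap above 20 points. Across the 237 CpGs the absolute differences of the strands had a Pearson correlation of 0.69 and a Spearman correlation of 0.54. That is a description of CpGs from 1 contrast, which share animals and libraries. Only CpGs past the limit on both strands enter these values.

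At the CpG with the largest difference the strands were 5.89 points apart. At chromosome 1, positions 144325212 and 144325213, the authors' deposited table gave -84.9 points on the plus strand and -79.0 on the minus strand. At chromosome 8, position 19117409, the authors' deposited table gave 62.4 points on the plus strand and 36.6 on the minus strand, the widest gap among CpGs with 1 direction. Sites listed on both strands were larger, with a median absolute difference of 30.5 points against 26.1 points for the 1515 cytosines whose partner was not listed. Their p-value was also more often listed at 0, in 55.2% against 31.0% of sites. Both strands had to pass the limits of the lists, which by itself favours larger differences and smaller p-values.

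In 4 CpGs the strands were listed with opposite directions. The authors' deposited table gave 30.6 and -34.8 points at chromosome 8, positions 21246487 and 21246488. F1 held the same pair with the same opposition, for which the authors' deposited table had 20.7 and -25.9 points. On chromosome 16 the authors' deposited table gave 28.8 points at position 7433544 and -27.0 at position 7433545. The 2 others lay on chromosome 20, at 26.4 and -20.5 points for positions 8999068 and 8999069 and at -21.8 and 33.3 points for positions 12850621 and 12850622 in the authors' deposited table. The plus strand of the first of these was also listed in F1, at 26.6 points in the authors' deposited table.

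**Figure D2:**
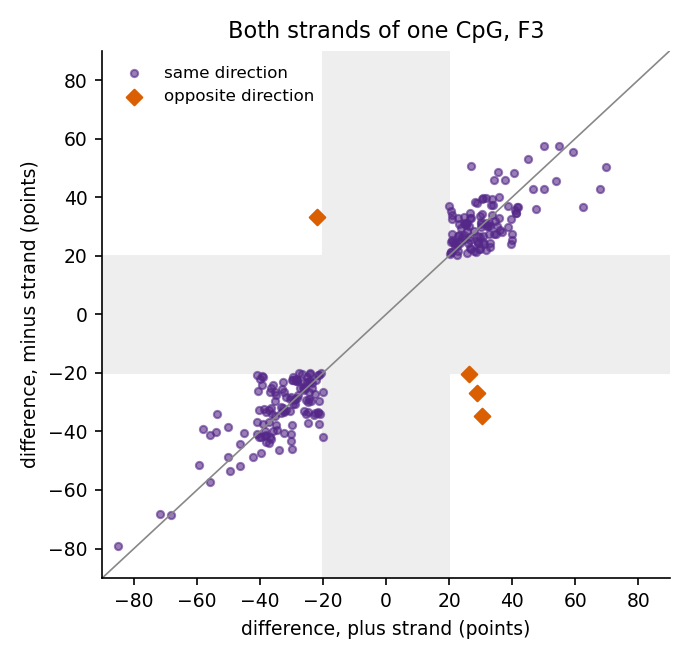
Methylation difference on the plus strand (x axis) and minus strand (y axis) of the 241 CpGs listed on both strands in F3, in percentage points. Grey bands mark differences below the 20-point limit of the lists, the line marks equal values, and orange diamonds are the 4 CpGs with opposite directions.

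Most loci were a lone cytosine. Of the 1392 loci, 1053 held a single cytosine, a share of 75.6% (73.3% to 77.9%). A further 261 loci held 2 cytosines, and in 169 of these the 2 were the strands of 1 CpG. Counted in CpGs, 1222 loci or 87.8% were therefore a lone CpG. Loci with 3 or 4 cytosines numbered 48, those with 5 to 9 numbered 22, and 8 loci held 10 or more. The 30 loci with at least 5 cytosines held 267 sites, or 13.4% of the list. Of these 30, 14 were hypermethylated and 16 hypomethylated, and of the 8 largest, 2 were hypermethylated and 6 hypomethylated.

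The sharing of direction between adjacent listed sites faded with distance. It was found in 239 of 244 adjacent pairs 1 bp apart, in 106 of 110 further pairs up to 10 bp apart and in 148 of 160 pairs over 10 and up to 50 bp apart. The share was 87.9% of 58 pairs over 50 and up to 100 bp apart and 72.7% of 33 pairs over 100 and up to 1000 bp apart. From there to 10000 bp it was 65.8% of 38 pairs, from 10000 to 100000 bp 61.0% of 187 pairs, from 100000 to 1000000 bp 56.9% of 583 pairs, and beyond 1000000 bp 51.4% of 564 pairs. The pairs 1 bp apart include the 241 CpGs listed on both strands. Close neighbours on 1 strand share sequencing reads, and all pairs share animals and libraries. The pairs are therefore not independent measurements.

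The most populated locus lay on chromosome 12, from 25996483 to 25997144, with 39 hypermethylated cytosines over 662 bp. Their differences averaged 32.1 points with an SD over sites of 5.80 points and ran from 21.4 to 41.1 points in the authors' deposited table. The sites fell into 5 groups separated by more than 50 bp, with means of 27.5, 33.5, 35.0, 34.9 and 35.8 points from the lower to the higher coordinate in the authors' deposited table. The first 2 groups were listed on both strands, and the last 3 groups, with 5, 4 and 4 sites, on the plus strand only. Only 1 of the 39 sites was also listed in another generation, where the authors' deposited table had 23.4 points for F1 and 22.5 for F3.

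The locus with the most hypomethylated sites lay on chromosome 10, from 107349976 to 107350615, with 18 cytosines averaging -34.3 points in the authors' deposited table. Of these, 7 CpGs were listed on both strands, and a gap of 552 bp separated the last 2 sites from the rest. No site of this locus was listed in F1 or F2.

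Chromosome 13 carried a locus of 16 hypomethylated cytosines from 57960469 to 57960614, made of 8 CpGs each listed on both strands. The mean was -38.6 points and the range -59.4 to -22.4 points in the authors' deposited table. The 8 CpGs were regularly placed: 6 pairs of them lay exactly 36 bp apart. Of the 16 sites, 8 were also listed in F2 and 4 in F1, all hypomethylated, and each was larger in F3. The 8 sites shared with F2 averaged 47.7 points in absolute size in F3 and 29.5 in F2 by the authors' deposited table. The 4 shared with F1 averaged 52.1 points in F3 and 25.7 in F1 by the authors' deposited table. At position 57960530 the authors' deposited table went from -29.1 points in F1 over -40.2 in F2 to -59.4 in F3. At 57960566, 36 bp further on, it had -28.7, -39.8 and -58.1. The locus was named for its number of F3 sites, and position 57960530 held its largest F3 difference. Both choices by themselves favour a larger value in F3. Among all shared sites of the same direction, F3 was larger at 163 of 292 for F1 and 155 of 307 for F2. The sites of this locus are close neighbours and not independent measurements.

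Regular spacing also marked 2 other loci, both listed on 1 strand only. On chromosome 19, from 59904546 to 59904747, 14 hypomethylated cytosines on the plus strand averaged -42.0 points in the authors' deposited table, with an SD over sites of only 1.84 points, and 6 pairs of them lay exactly 29 bp apart. None was listed in F1 or F2. On chromosome 1, from 26238524 to 26238659, 13 hypomethylated cytosines on the minus strand averaged -32.6 points in the authors' deposited table, with an SD of 1.43 points, and 10 pairs lay exactly 16 bp apart. F2 listed the same 13 cytosines, averaging -27.7 points in the authors' deposited table, and F3 was larger at all 13, by 2.40 to 9.33 points. Close neighbours on 1 strand share sequencing reads, so neither these 13 sites nor the 14 on chromosome 19 are independent measurements. The chromosome 1 locus was named for its number of F3 sites, which by itself favours a larger value in F3. The spacing was looked for at 10 to 60 bp in the 30 loci with at least 5 sites, after the positions had been seen. In 25 of those loci, no spacing recurred in 3 or more pairs of CpGs. Besides the 3 loci described, a spacing of 11 bp recurred in 4 pairs among the 32 CpGs of the 39-site chromosome 12 locus. In the 18-site chromosome 10 locus, 3 pairs among 11 CpGs lay 13 bp apart. The sequence under these positions was not used here, so whether they lie in repeats was not tested.

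Further runs held one direction throughout. On chromosome 17, from 18041041 to 18041222, 11 hypomethylated cytosines on the minus strand averaged -30.002 points in the authors' deposited table, with an SD of 2.56 points. On chromosome 14 a run of 10 hypermethylated sites from 6770364 to 6770447, averaging 31.6 points, and a run of 10 hypomethylated sites from 42889047 to 42889162, averaging -33.8 points, stood in the authors' deposited table. These 3 runs were listed in F3 alone. On chromosome 4, from 7211797 to 7211912, 8 hypomethylated sites stood close to the limit, averaging -22.0 points in the authors' deposited table, and none was listed in F1 or F2. A run of 8 F3 sites on chromosome 17, from 91224532 to 91224679, averaged -30.2 points in the authors' deposited table. F1 listed the same 8 sites with the same direction and a mean of -56.2 points by the authors' deposited table, and F3 was smaller at each. These 8 close neighbours are not independent measurements either. Of the 10 loci with the most sites, 4 held a site listed in another generation, with the same direction at each shared site. Over all F3 loci, 463 of 1392 or 33.3% held such a site. A locus with many sites has more chances to hold one, so these 2 shares are not alike. Counted by site, 22 of 131 or 16.8% in loci with 10 or more sites were also listed in F1 or F2. This share was 28.7% in loci with 5 to 9 sites and 29.2% in loci with 1 site.

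**Figure D3:**
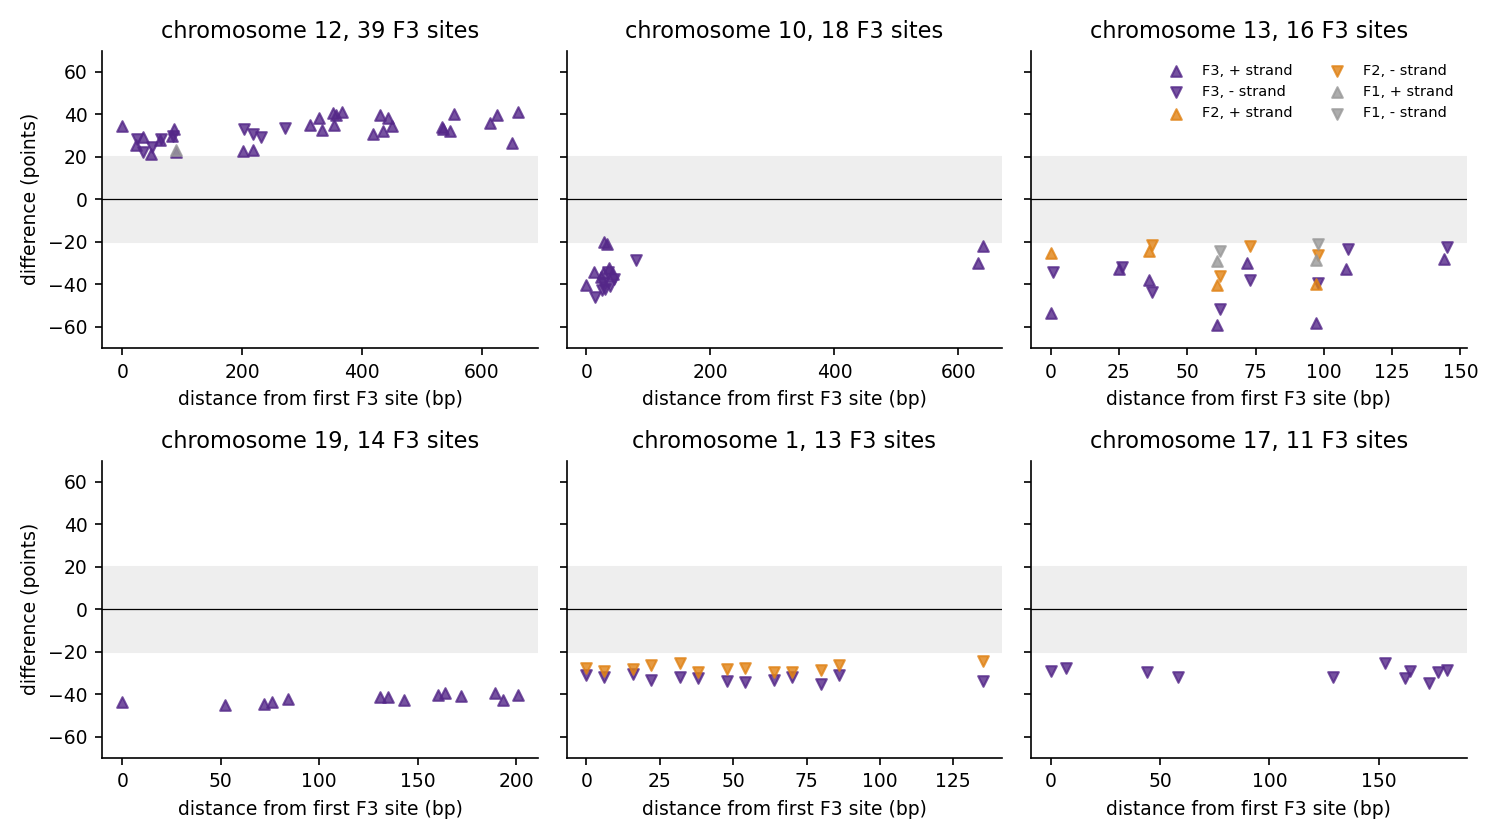
Methylation differences (points, y axis) at the 6 F3 loci with the most listed cytosines, by distance in bp from the first F3 site (x axis). Colour gives the list (F1 grey, F2 orange, F3 purple), upward and downward triangles the plus and minus strand, and the grey band values below the 20-point limit. The chromosome 13 and chromosome 1 loci show F2 sites at smaller differences than F3, and the chromosome 1, 13 and 19 loci show regular spacing.

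Some loci mixed directions. Of the 339 loci with more than 1 cytosine, 33 or 9.73% held both hypermethylated and hypomethylated sites, against 15.0% in F1 and 8% in F2. Sites of opposite direction came within 100 bp of each other in 25 of the 33 and within 10 bp in 8. On chromosome 10, from 101048175 to 101048334, 6 of 7 plus-strand sites were hypermethylated, between 35.9 and 47.5 points in the authors' deposited table. Position 101048244, between 2 of them, was at -23.5 points in the authors' deposited table, 4 bp from sites at 47.5 and 40.9 points. F1 listed the 6 hypermethylated sites, with a mean of 39.9 points against 42.5 for F3 by the authors' deposited table, and did not list the hypomethylated one.

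A similar single exception occurred on chromosome 5, from 3596156 to 3596361. There 6 minus-strand sites lay between 24.7 and 30.4 points and position 3596227 at -24.0 points in the authors' deposited table. On chromosome 2 the change of direction fell between neighbouring CpGs, each listed on both strands. Positions 77724197 and 77724198 stood at 30.3 and 34.4 points and positions 77724199 and 77724200 at -46.2 and -44.4 points in the authors' deposited table. F2 listed only the second CpG, also as hypomethylated, at -25.6 and -22.3 points in the authors' deposited table. On chromosome 8 the authors' deposited table gave 21.9 and 21.6 points at positions 119692454 and 119692456 and -24.1 points at both 119692496 and 119692500. The chromosome 16 CpG with opposed strands belonged to a locus from 7433294 to 7433545 whose other CpG stood at -29.7 and -30.6 points in the authors' deposited table.

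The 10 hypermethylated and 10 hypomethylated loci with the largest single difference lay on 13 chromosomes. Of these 20 loci, 10 held a single cytosine and 6 were the 2 strands of 1 CpG. The hypermethylated leading sites ran from 59.7 to 76.7 points and the hypomethylated ones from -84.9 to -59.4 points in the authors' deposited table, all with a q-value listed at 0. A site of F1 or F2 was listed in 14 of the 20 loci, and the direction of its mean was the same in 13 of the 14. The 20 loci were chosen by size in F3, and a larger size went with recurrence over the whole list, as given above.

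The 6 leading loci listed in F3 alone included the extremes of both directions. Beside the chromosome 1 CpG at 144325212, they were chromosome 8, position 19727519, at 76.7 points, and chromosome 19, position 43784852, at -67.6 points in the authors' deposited table. The 3 others were chromosome 3, position 69171688, at 65.5 points, chromosome 1, position 265577602, at 63.2 points, and chromosome 16, position 11156488, at -62.7 points in the authors' deposited table. Whether these sites were measured in F1 and F2 is not told by the lists.

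Of the leading sites also listed in F1 or F2, several were far larger in F3. They were chosen as the largest in F3, which by itself favours a smaller value in the other list. Among all shared sites of the same direction, F3 was larger at 163 of 292 for F1 and 155 of 307 for F2. At chromosome 17, position 84067535, the authors' deposited table went from -21.9 points for F1 to -63.9 for F3. It is also the authors' deposited table that gave -36.1 points for F2 and -68.5 for F3 at chromosome 9, position 14324075, and -47.3 points for F1 and -71.7 for F3 at chromosome 12, position 30057469. Position 29385508 of chromosome 17 stayed closer to its F1 value, since the authors' deposited table had 54.7 points for F1 and 59.7 for F3. For F1, F2 and F3 in turn, the authors' deposited table had 24.3, 59.4 and 62.0 points at chromosome 20, position 13423409. At position 12896355 of the same chromosome the authors' deposited table had -26.6, -45.2 and -60.1 points.

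A stretch of chromosome 1 gathered 4 of the largest F3 differences, and it was chosen after its values were seen. Besides the leading CpG at 144325212, the authors' deposited table gave -61.9 points at position 144303133, -59.1 at 144397959 and 67.9 at 143490799. For F1 the authors' deposited table had -30.4 points at 144303133, -25.5 at 144397959 and 46.5 at 143490799, and for F2 -54.0 at 144397959. Every shared value had the same direction. From 143490799 to 144397959 the F3 lists held 7 cytosines, 2 hypermethylated and 5 hypomethylated. Among them, position 143864459 was at only -25.1 points in the authors' deposited table and was not listed in F1 or F2.

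Over windows of 1000000 bp, F3 loci were spread thinly. Of 863 windows with a locus, 569 held 1, and only 4 held more than 6. The fullest, chromosome 20 from 13000001 to 14000000, held 11 loci, 8 hypermethylated and 3 hypomethylated, against 5 in F1 and 7 in F2. The window just before it, from 12000001 to 13000000, held 8 loci, 6 of them hypermethylated, against 7 loci in F1 and 5 in F2. Chromosome 5 from 153000001 to 154000000 held 9 loci, 4 hypermethylated and 5 hypomethylated, against 5 loci in F1 and 5 in F2. Chromosome 6 from 144000001 to 145000000 held 7 loci, 1 hypermethylated and 6 hypomethylated, against 7 loci in F1 and 4 in F2. A further 10 windows held 6 loci each. How many cytosines could be measured in each window was not known, so crowding was not tested.

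Chromosome by chromosome, the hypermethylated share of F3 loci lay between 23.5% and 56.6%. Hypomethylated loci were in the majority on 14 of the 20 chromosomes. The share was lower in F3 than in F2 on 16 chromosomes, and lower than in F1 on 18. The exceptions to the latter were chromosome 11, with 54.2% in F3 and 51.6% in F1, and chromosome 19, with 52.2% and 51.1%. Chromosome 13 stood apart, and it was singled out after its values were seen. It held 8 hypermethylated and 26 hypomethylated F3 loci, a share of 23.5% (10.7% to 41.2%), where F1 had 80.0% of 50 loci and F2 73.1% of 26. It was the only chromosome whose F3 interval did not include an equal split, among 20 looked at. Of its 26 hypomethylated loci, 20 were single cytosines, and the 34 loci lay in 29 windows of 1000000 bp. Hypomethylated loci also came in runs. Every F3 locus from position 22060531 to 54365329 was hypomethylated, and so was every one from 57729318 to 59906925. Clustering was not tested. Of the 34 loci, 6 or 17.6% held a site listed in F1 or F2, against 33.3% of all F3 loci, and chromosome 15 had a lower share, at 15%.

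**Figure D4:**
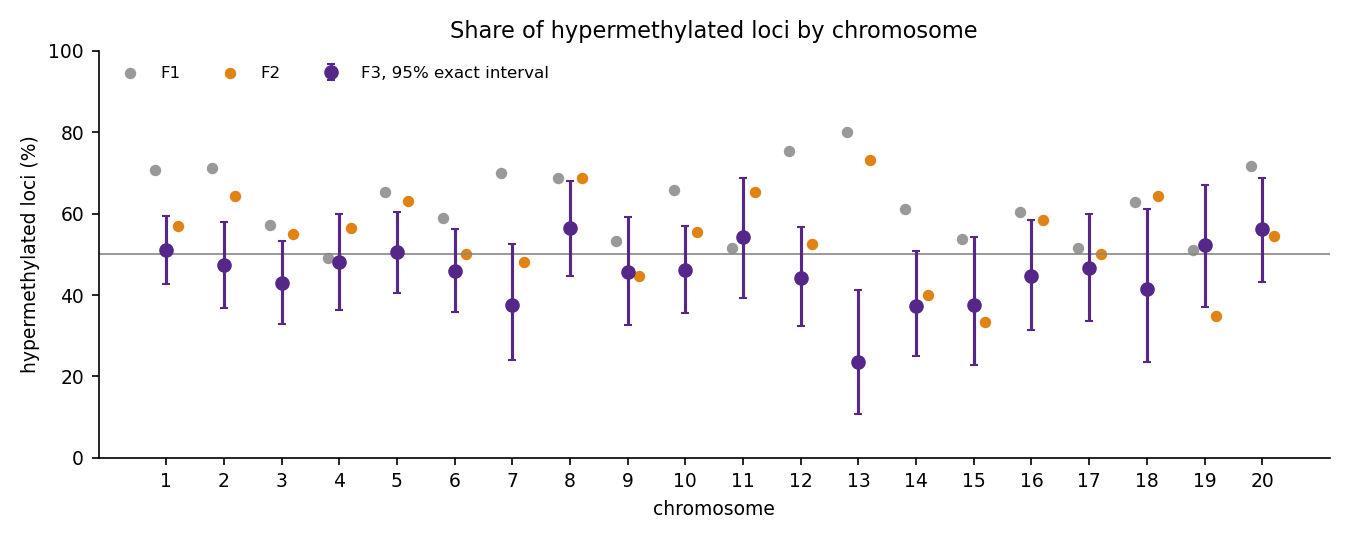
Percent of loci that were hypermethylated (y axis) on each of the 20 chromosomes (x axis) in F1 (grey), F2 (orange) and F3 (purple, bars are 95% exact Clopper-Pearson intervals over loci). The line marks an equal split. Chromosome 13 has 23.5% in F3, 80.0% in F1 and 73.1% in F2.

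F3 shared 381 cytosines with F1 and 345 with F2. These were 19.1% of the F3 and 22.1% of the F1 list, and 17.3% of the F3 and 28.3% of the F2 list. The direction was the same as in F1 at 292 sites, or 76.6%, 148 hypermethylated and 144 hypomethylated in both. It was the same as in F2 at 307 sites, or 89.0%, 145 hypermethylated and 162 hypomethylated. Shared sites are not independent where they are neighbours. The series' design gives each generation its own controls, but which animals entered which list is not stated.

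Sizes at the shared sites were then set side by side. At the 292 sites with the same direction as in F1 the median absolute difference was 31.7 points in F3 and 28.2 in F1 by the authors' deposited table, and F3 was the larger at 163. At the 307 sites with the same direction as in F2 the medians were 30.3 points in F3 and 31.2 in F2 by the authors' deposited table, and F3 was the larger at 155. Across these sites the absolute differences had a Pearson correlation of 0.05 (Spearman 0.05) with F1 and 0.18 (Spearman 0.19) with F2. These are descriptions over neighbouring and truncated values, since every list begins at 20 points, which lowers a correlation. For the 2 strands of a CpG within F3 the Pearson value was 0.69 (Spearman 0.54) under the same limit. Those strands share animals and libraries and the lists of different generations do not share a contrast, so these correlations are not alike. How far the limit lowers each was not tested. Of the 131 cytosines listed in all 3 generations, 114 kept 1 direction, and F3 held the largest of the 3 values at 39 of them and the smallest at 45.

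**Figure D5:**
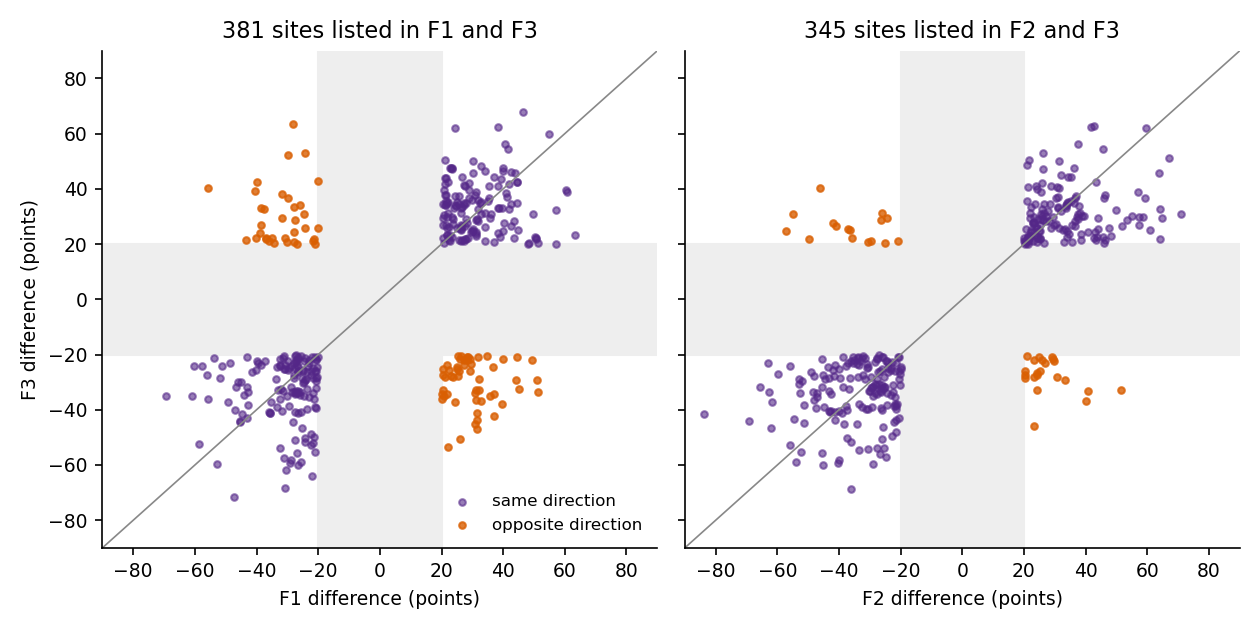
F3 difference (y axis) against the F1 difference (left, 381 sites) and the F2 difference (right, 345 sites) of the same cytosine, in percentage points. Grey bands mark values below the 20-point limit, the line marks equal values, and orange points are the 89 and 38 sites with opposite directions.

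The opposite direction was found at 89 sites shared with F1 and 38 shared with F2, together 117 cytosines. Of these, 47 were hypermethylated and 70 hypomethylated in F3. Among the sites opposed to F1, 54 were hypermethylated in F1 and hypomethylated in F3, and 35 the reverse. The largest F3 value among these belonged to chromosome 10, position 18003582, for which the authors' deposited table had -28.3 points (F1) and 63.6 points (F3). On chromosome 5 the authors' deposited table had 22.2 points (F1) and -53.5 points (F3) at position 139212589, and -29.95 and 52.1 points at position 139478649. The reversals at these 2 sites of one chromosome ran in opposite senses. Position 12722554 of chromosome 10 had 31.5 points for F1, -41.3 for F2 and -43.5 for F3 by the authors' deposited table, so the direction changed between F1 and F2 and not after. With no values of single samples, no reversal could be tested.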

How the data were processed

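Sperm DNA of 48 rats was profiled by bisulfite sequencing. Per the labels' protocols, libraries were gel-free and bisulfite-converted. Tools named, without roles, in the submitters' processing notes were methylKit 0.9.4, Bismark 0.14.5, Trim Galore 0.4.0, bedtools 2.17, SAMtools 1.2 and CASAVA, and the build was Rnor_5.0. For the coverage minimum and the model, the sources used here give nothing. The authors deposited, per cytosine, a signed difference in percentage points, a p-value and a q-value, kept at a false discovery rate below 1% and a difference of at least 20 points, per the deposited description.

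Computed here were loci (sites at most 1000 bp apart, signed by their mean), strand pairs (plus strand at a position, minus strand at the next), matches between lists by chromosome, position and strand, and 95% exact Clopper-Pearson intervals, which cover counting error only. No significance test was made, since only group differences are listed. The merging, pairing and spacing steps were tested on simulated data. The reference table at hand is of another build and was not used.

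Named were the 10 largest hyper- and hypomethylated loci, the 10 loci with the most sites, opposed strands, 5 mixed loci, and leading sites shared by all generations or opposed between them, with some of each described. The members, lists and rules were chosen with earlier results of these data known. The work used matplotlib 3.10.9, scipy 1.17.1, pandas 2.3.3 and numpy 2.4.6 under Python 3.11.15.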

Additional observations from a re-analysis of the deposited data

How the results depend on the processing

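Of 44 alternatives over 10 results, 30 stayed within the interval of the reported value (for the number of loci, within 1.5 times) and 14 moved. The hypermethylated share of loci was below an equal split in all 7 alternatives, which are cuts of the same lists. It ran from 46.3% with merging at 10000 bp to 48.6% at a q-value of at most 1e-05, and was 48.1% at 30 points. No interval was computed for the alternatives, so whether each would leave out an equal split was not tested. With a minimum difference of 25 points, F3 had 846 loci, with a median of 31.2 points, 15.0% of its sites were also listed in F1, and 93.3% of sites shared with F2 had the same direction. At 30 points there were 518 loci with a median of 36.1 points. At a q-value of at most 1e-05 the median was 28.5 points and 19.5% of sites were also listed in F2. With the largest site of each locus in place of its mean, the median was 26.9 points. With the strands of a CpG merged, 87.8% of loci were single. Matching on either strand of a CpG gave 21.5% of sites also listed in F1 and 19.8% in F2, and matching within 100 bp 24.99% and 22.7%. The medians and the counts of loci follow from the construction of stricter limits, and the looser matches admit more sites. For the other values that moved, the cause was not tested. No paired analysis was possible because the lists give group differences and no sample values, and no replicate could be left out for the same reason. Depth is unknown.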
